A study of Mus musculus with 4 samples.

Results

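The solute carriers are the largest group of membrane transport proteins. Those outside the mitochondrial SLC25 family whose names fit the rule below are described here by the accessibility of chromatin near their genes in mouse subcutaneous white fat. Members were the genes whose deposited name holds Slc, a family number, the letter a and a member number, or begins with Slco, with names that begin with Slc25a left out. Carriers with another letter, such as Slc35d3, fall outside the rule. The rule found 138 of 11993 genes in the table. Of these, 2 are no carriers by name: Slc7a6os is the opposite-strand neighbour of Slc7a6, and Slc9a3r1 encodes NHERF1, a scaffold that binds the sodium-proton exchanger NHE3.

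Solute carriers move small molecules across the plasma membrane and the membranes of lysosomes, Golgi and vesicles, by facilitated diffusion or by coupling to gradients of sodium, protons or other ions. In fat cells, insulin moves the glucose carrier GLUT4 (Slc2a4) from inside the cell to its surface, fatty acid transport proteins (Slc27) take part in lipid uptake, and monocarboxylate carriers (Slc16) move lactate and ketone bodies. Other families bring in amino acids, zinc, iron, phosphate, choline and vitamins that most cells need.

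ATAC-seq marks open chromatin through the cuts and tags that the transposase Tn5 leaves in accessible DNA. The series held 4 libraries, 2 male and 2 female, made from frozen pieces of subcutaneous white adipose tissue of wild-type (WT) mice. The sources used here give neither age, strain or diet nor any pooling of mice. They also do not say that replicates are different mice, so p-values may measure technical spread alone. Whole tissue was used, and more open chromatin per cell cannot be told apart from more cells of a type in which the region is open. Each value is a peak height, that is the scaled tag coverage at a region, averaged over all regions that the authors linked to a gene. The sources used here hold no read totals, and the depth behind a height is unknown.

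The libraries differed widely, and this bears on every value that follows. Male 1 had 5484 peak intervals and male 2 had 4049, against 10238 in female 1 and 8022 in female 2. Over all genes the mean height was 25.3 in male 1 and 16.8 in male 2, against 40.9 in female 1 and 32.5 in female 2. On the log2(height + 9) scale used for all differences below, the median gene was lower in males by 0.63 (male minus female, -0.63), and a relative difference is the difference after this median is taken off. Of 8 regions on the Y chromosome, 2 had a peak in both males and neither female and 0 had the reverse, as the labels would have it. Of 6 adipocyte markers 3 had a linked region (Cidec, Pparg and Lipe), with a summed height of 73.9 in male 1 and 51.8 in male 2, against 139.5 in female 1 and 110 in female 2; none of the markers was at 0.

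Members took very different shares of the carrier families. RefSeq lists 313 mouse protein-coding genes whose symbol fits the name rule, and 137 of them (43.8%) had a row in the gene table, against 10662 of 21900 protein-coding genes in all (48.7%). The nucleotide sugar carriers Slc35a1 to Slc35a5, which load the Golgi with building blocks for glycans, were all present, 5 of 5. Slc35 carriers with other letters fall outside the rule and are not counted. Carriers of metals came next with 23 of 32 (71.9%), including 11 of 14 zinc and iron importers of family Slc39. Vitamin, choline and heme carriers had 12 of 19. Of the families with at least 10 RefSeq genes, Slc6 (sodium-coupled carriers of neurotransmitters and amino acids) had 1 of 21, Slc5 (sodium-coupled glucose and related carriers) 2 of 13, Slco 3 of 14 and Slc22 (organic ion carriers) 6 of 25. Others of that size had more, with 10 of 14 in the monocarboxylate family Slc16 and 7 of 11 in the anion exchangers Slc26. A row needs a peak in at least 1 of the 4 libraries near the gene, so these shares depend on how many peaks were called.

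**Figure D1:**
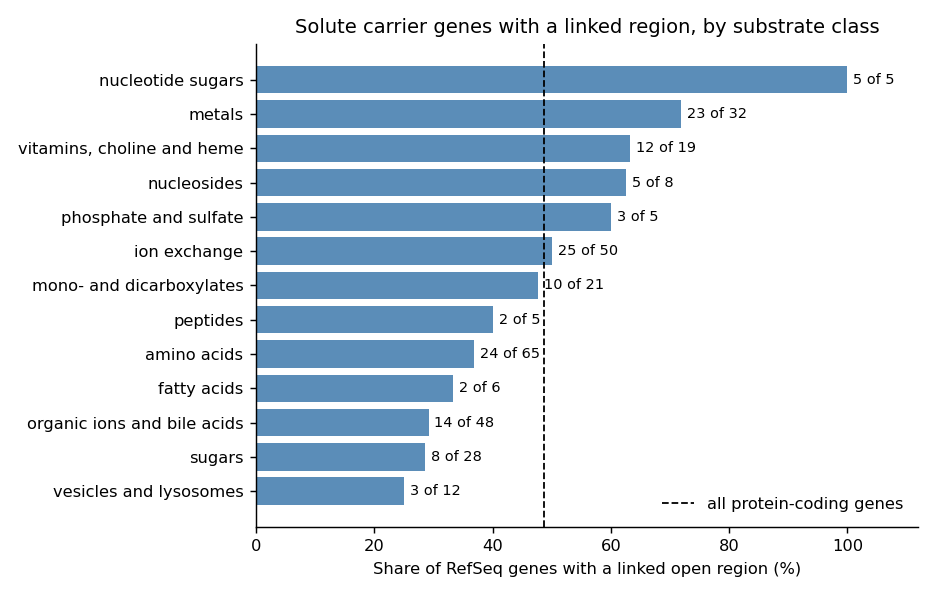
Share of the protein-coding carrier genes of each substrate class in RefSeq that had a row in the gene table, in percent (horizontal axis), with the count of genes beside each bar. Nucleotide sugars (5 of 5, Slc35a only) and metals (23 of 32) stand highest, and organic ions with 14 of 48 and sugars with 8 of 28 are among the lowest. Classes follow the family number in the name alone.

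The members were linked to 199 different regions with a median length of 199 bp (78 to 746 bp), against 195 bp over all merged regions. A single region was linked to 84 members, 2 regions to 45 and more to the other 9. A region lay within 1000 bp of the gene's start for 82 members (59.4%, against 69.7% of all genes). The others were sorted in a fixed order and not by their nearest region. For 18 members (13%, against 9.35%) a region lay inside the gene. For 22 (15.9%, against 10.7%) none lay inside but at least 1 lay farther upstream, and for 16 (11.6%, against 10.2%) regions lay downstream only. With a neighbouring gene, 85 members shared at least 1 region, and 73 of them (52.9% of members) shared every one, so that their height cannot be assigned to the carrier alone. For 41 (29.7%, against 39.5% of all genes) another gene had exactly the same regions. Among the carriers themselves, Slc16a13 and Slc16a11, neighbours of the lactate carrier family, had the same single region (chr11:70220957-70221264, mm10), linked also to Bcl6b. Slc22a4 and Slc22a21, neighbours that encode carriers of the OCTN group, shared 2 regions. Slc22a21 had these 2 alone, while Slc22a4 had 4 in all.

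Promoters of carriers with an open start were rich in CpG. Promoter sequences of 300 bases (RefSeq, build GRCm38.p6, 250 bases before the start and 50 after) were matched for 108 of the 138 members. Median GC content was 64.2% and the median ratio of observed to expected CpG was 0.779 in the 60 members with a region at the start, against 58.2% and 0.355 in the 48 without. Over all table genes matched, the corresponding values were 62.3% and 0.816 with a region at the start, against 56.7% and 0.487 without, the same order as in carriers. A pair of members is shown, one with and one without a region at its start, with CG dinucleotides in capitals. Slc44a1 (choline transporter-like protein 1; chr4:53440163-53440462, plus strand) has 43 CG in its window, which lies wholly inside the deposited region chr4:53440137-53440463. Slc28a3 (a sodium-coupled nucleoside carrier; chr13:58610828-58611127, minus strand) has 8, and its only region lies 17469 bp inside the gene.

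Slc44a1: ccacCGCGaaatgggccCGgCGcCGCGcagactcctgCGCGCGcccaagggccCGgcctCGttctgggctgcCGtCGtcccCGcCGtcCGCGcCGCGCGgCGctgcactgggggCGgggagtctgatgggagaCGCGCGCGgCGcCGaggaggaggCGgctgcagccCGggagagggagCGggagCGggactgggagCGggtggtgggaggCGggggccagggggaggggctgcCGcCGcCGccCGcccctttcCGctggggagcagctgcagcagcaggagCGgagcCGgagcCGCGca

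Slc28a3: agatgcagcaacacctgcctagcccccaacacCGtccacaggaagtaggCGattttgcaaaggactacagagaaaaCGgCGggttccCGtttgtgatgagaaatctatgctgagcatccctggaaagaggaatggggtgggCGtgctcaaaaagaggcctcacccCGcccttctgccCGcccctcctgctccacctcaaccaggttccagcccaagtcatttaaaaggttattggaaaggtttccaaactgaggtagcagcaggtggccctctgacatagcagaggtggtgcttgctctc

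The mean height over the 138 members was 22.7 in male 1 and 14.8 in male 2, against 36.5 in female 1 and 29.4 in female 2. The mean was 18.7 ± 5.63 in males and 32.9 ± 5.0 in females (SD, n = 2 each), with an exact two-sided permutation p of 0.33, the smallest that 2 against 2 libraries allow. Carriers were lower than the average gene in every library, and 53 of them exceeded the median gene's mean height while 21 fell in its lowest 10%. The share of members with a linked peak was 58.0% in male 1 and 42.8% in male 2, against 85.5% in female 1 and 73.9% in female 2. Over all genes the shares were 61.2% in male 1 and 49.1% in male 2, against 89.7% in female 1 and 76.7% in female 2.

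Carriers that had a peak in all 4 libraries, in any of their linked regions, numbered 45 (32.6%, against a background of 35.9% of all genes). They include Slc31a1 (the copper importer CTR1), Slc39a10 (a zinc importer), Slc37a4 (the glucose 6-phosphate carrier of the endoplasmic reticulum), Slc20a1 (the phosphate carrier PiT-1), Slc17a5 (sialin of lysosomes), Slc1a4 (the neutral amino acid carrier ASCT1), Slc3a2 (the heavy chain shared by several amino acid carriers), Slc22a5 (the carnitine carrier OCTN2) and Slc35a1 (the CMP-sialic acid carrier of the Golgi). The peaks of a gene need not share a region. In Slc3a2 the male 2 peak lay 9833 bp inside the gene, while male 1, female 1 and female 2 had theirs at the start. At the other end, 35 (25.4%, against 19.8%) had a peak in 1 library, most often female 1 with 22. A peak in both females and neither male was found for 15 members (10.9%, against 11.7%), and 1, Slc22a21, had the reverse (0.725%, against 0.475%). Heights of members without a peak call ran from 1.41 to 38.2 in male 1 and from 1.47 to 79.3 in male 2, against 2 to 39.0 in female 1 and 6.58 to 33.7 in female 2. Their medians were 14.8 in male 1 and 9.91 in male 2, against 23 in female 1 and 18.4 in female 2, and the 79.3 belongs to Slc44a1 alone.

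The series asks how male and female fat differ, and for carriers the difference was close to that of genes at large. Both males lay below both females for 110 members (79.7%, against 76.4% of all genes), and for 0 members did both males lie above both females (against 0.35%). The median difference was -0.64 over members and -0.63 over all genes, a relative difference of -0.01, and single members ran from -1.53 to 0.35. In the limma test over all genes, 3 members passed an adjusted p under 0.05, all lower in males (2.17%, against a background of 0.592%), and 0 were higher (background 0%). A gene has a row only where some library had a peak, and 46 members (33.3%, against 27.9% of all genes) had peaks in female libraries only, while 5 (3.62%, against 4.05%) had peaks in male libraries only. All 3 called members are among the 46, so entry to the table favoured a lower male height in them. At an unadjusted p under 0.05, 45 members were lower in males (32.6%, against 31.4%) and 0 were higher (against 0.00834%). With each library centred on its own median, which removes the library-wide difference, 0 members passed (smallest adjusted p = 0.609), and at an unadjusted p under 0.05 there were 4 lower (2.90%, against 3.64%) and 6 higher (4.35%, against 4.39%).

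Slc28a3 encodes CNT3, which carries nucleosides and nucleoside drugs into cells along with sodium. Its height was 7.07 in male 1 and 5.14 in male 2, against 34.0 in female 1 and 35.3 in female 2. The sexes stood far apart and the libraries of each sex close together, at 6.10 ± 1.36 in males and 34.7 ± 0.952 in females (SD, n = 2 each). The log2 difference was -1.53 (SE 0.36, adjusted p = 0.0203), the most negative of all members. Its region (chr13:58593323-58593439, 117 bp) lies inside the gene and was linked to no other gene; both females and neither male had a peak there.

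Slc34a3 encodes NaPi-IIc, a sodium-phosphate carrier best known from the kidney. Heights were 7.78 in male 1 and 1.47 in male 2, against 28 in female 1 and 21.4 in female 2, and the sexes did not overlap. The log2 difference was -1.34 (SE 0.35, adjusted p = 0.0309). The region (chr2:25240880-25240968) lies 6694 bp upstream and was linked also to Rnf208, Ndor1, Gm757 and 2310002J15Rik, so the height cannot be assigned to Slc34a3 alone. Only female 1 had a peak call there.

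Slc1a1 encodes EAAT3, a glutamate and cysteine carrier of nerve cells and epithelia. Heights were 1.41 in male 1 and 3.67 in male 2, against 17.0 in female 1 and 19.7 in female 2, again without overlap. The log2 difference was -1.25 (SE 0.34, adjusted p = 0.0435). The region (chr19:28827968-28828099) lies 7134 bp upstream, was linked to Slc1a1 alone, and had a peak call in female 2. None of these 3 regions lies within 1000 bp of a carrier's start.

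The 3 calls did not survive every setting. With centred libraries the adjusted p was 0.609 for Slc28a3 and Slc34a3 and 0.642 for Slc1a1. When only genes above the 25th percentile of mean height were tested, Slc28a3 lost its call (limma adjusted p = 0.135). Slc34a3 and Slc1a1, at percentiles 8.83 and 2.29 of mean height, were left out by that filter and not tested. Leaving out male 2 or female 1 ended all 3 calls, leaving out female 2 kept Slc1a1 alone, and leaving out male 1 raised the count to 67 members; in each of these fits 1 sex had a single library, assumed to vary like the other sex. Markers of mammary epithelium, which lies within female subcutaneous fat, moved in the same direction: 3 of 7 had a linked region (Cldn3, St14 and Spint2), their summed height was 14.1 in male 1 and 7.34 in male 2, against 74.0 in female 1 and 57.5 in female 2, and St14 and Spint2 were themselves called lower in males. None of the 3 was at 0 in any library. Of the Schwann cell markers 3 of 4 had a region and Erbb3 was called lower in males. No measured marker of adipocytes (3), endothelium (2), macrophages (1), lymphocytes (1), muscle (1) or progenitors (3) was called. Their median log2 differences were -0.61 in adipocytes, -0.73 in endothelium, -0.88 in macrophages, -0.78 in lymphocytes, -1.20 in muscle and -0.88 in progenitors. The median was -1.36 in mammary epithelium, -0.63 in Schwann cells and -0.63 over all genes. The part of these cells in the carriers' difference was not tested.

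Below the threshold followed carriers of organic ions, zinc, heme and nucleosides. A pair of heights of a sex is given with its first library and then its second. Slc22a17, whose protein binds lipocalin 2, had 11.3 in male 1 and 2.20 in male 2, against 23 in female 1 and 27.1 in female 2 (log2 difference -1.17, adjusted p = 0.0683). Its region is shared with Efs. Slc30a4, a zinc exporter whose loss in the lethal milk mouse leaves the milk poor in zinc, had 24.0 and 2.20 in males, against 40.0 and 30.4 in females (adjusted p = 0.0804). In Slc30a4 the males differed from each other by more than the lower female differed from the higher male. Slc48a1, the heme carrier HRG1, had 16.3 and 8.08 in males, against 47.0 and 29.6 in females (adjusted p = 0.0935), and shares its region with Hdac7. Slc29a3, the lysosomal nucleoside carrier ENT3, had 21.2 and 15.4 in males, against 61.0 and 49.3 in females (adjusted p = 0.0941). In Slc29a3, as in Slc22a17, Slc30a4, Slc48a1 and Slc12a3, both males lay below both females (against 76.4% of all genes). The Slc29a3 region is shared with Unc5b. Slc12a3, the thiazide-sensitive sodium chloride carrier, had 19.1 and 3.67 in males, against 24.0 and 37.8 in females (adjusted p = 0.0974), in a region 34280 bp inside the gene. Without the mean-variance trend in limma, Slc22a17, Slc29a3, Slc30a4 and Slc48a1 also passed, which made 7 members.

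**Figure D2:**
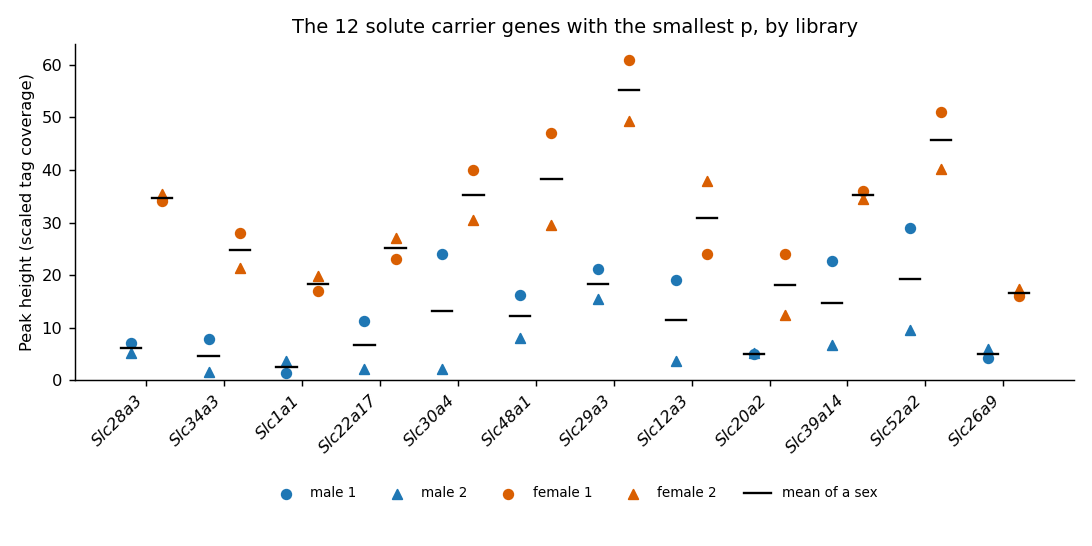
Peak height (vertical axis) of the 12 members with the smallest p of the limma test, 1 point per library, with male points left of female points for each gene. The 3 members past the threshold are Slc28a3, Slc34a3 and Slc1a1. Both male points lie below both female points in each of these genes, which were chosen by p, against 76.4% of all genes. In Slc30a4 male 1 (24.0) lies far from male 2 (2.20).

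Carriers with a role in fat were looked at as a group. Of a list of 23, 15 were members, and 0 of the 15 passed the test, where 0.592% of all genes did. Slc35d3 is on the list but cannot fit the name rule. Slc2a4, the insulin-responsive glucose carrier GLUT4, had 15.8 in male 1 and 12 in male 2, against 24.7 in female 1 and 21.4 in female 2 (log2 difference -0.49, SE 0.36, adjusted p = 0.272), a relative difference of 0.14. Its height is an average over 3 short regions upstream of the start and shared with Ybx2, at 98, 354 and 834 bp. The first and last of these had a peak in female 2 only and the middle one in male 2 only, so that no region of the GLUT4 gene had a peak in more than 1 library. Slc2a1, the glucose carrier GLUT1 of most cells, had 24.0 and 8.81 in males, against 36 and 23 in females (-0.65, adjusted p = 0.187); here male 1 was above female 2.

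The fatty acid transport proteins were Slc27a1 and Slc27a4. Slc27a4 had 33.6 in male 1 and 10.3 in male 2, against 57.5 in female 1 and 33.3 in female 2 (log2 difference -0.89, adjusted p = 0.135), with male 1 and female 2 nearly equal. Slc27a1 had 22.4 and 15.7 in males, against 37.3 and 27.7 in females (-0.57, adjusted p = 0.235). Its regions are shared with Pgls, Nxnl1 and Fam129c and the nearest lies 1121 bp inside the gene. Those of Slc27a4 are shared too, with Coq4 at the start and with Urm1 downstream.

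Among amino acid carriers, the glutamine carrier Slc1a5 had 21.2 and 16.2 in males, against 48.0 and 31.2 in females (-0.80, adjusted p = 0.151). Slc38a2, a sodium-coupled carrier of small neutral amino acids, had 25.4 and 8.81 in males, against 41.0 and 27.9 in females (-0.80, adjusted p = 0.147), but its region lies 10318 bp upstream, the farthest upstream link of the whole table. The partners Slc7a5 (the leucine carrier LAT1) and Slc3a2, which join into 1 complex, had log2 differences of -0.73 and -0.53 (adjusted p = 0.165 and 0.248). Their regions are shared, with BC048644 for Slc7a5 and with Snhg1 for Slc3a2. In Slc3a2 the heights were 19.8 and 13.6 in males, against 31.5 and 24.7 in females, and in Slc7a5 they were 29.0 and 9.18 in males, against 37.5 and 32.1. in females

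The lactate and ketone carriers Slc16a1 (MCT1) and Slc16a3 (MCT4) overlapped between the sexes. Slc16a1 had 25.4 in male 1 and 14.7 in male 2, against 37.0 in female 1 and 21.4 in female 2 (-0.39, adjusted p = 0.385). Slc16a3 had 29.7 and 9.55 in males, against 29.0 and 32.1 in females (-0.56, adjusted p = 0.236), the males alone spanning more than the females. Slc16a13 and Slc16a11, with their shared region, had 17.7 and 17.6 in males, against 37.0 and 28.8 in females (-0.65, adjusted p = 0.194), with nearly equal males. That region is linked also to Bcl6b. Slc16a12 (a creatine carrier) was 1 of the 4 members with a positive difference, 0.12 (adjusted p = 0.782), from a single region 84679 bp downstream of its start.

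Slc19a1, the reduced folate carrier, had 22.6 and 13.2 in males, against 24.0 and 33.7 in females (-0.50, adjusted p = 0.275). The rest of the list belongs to phosphate and metals and is given with those classes.

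**Figure D3:**
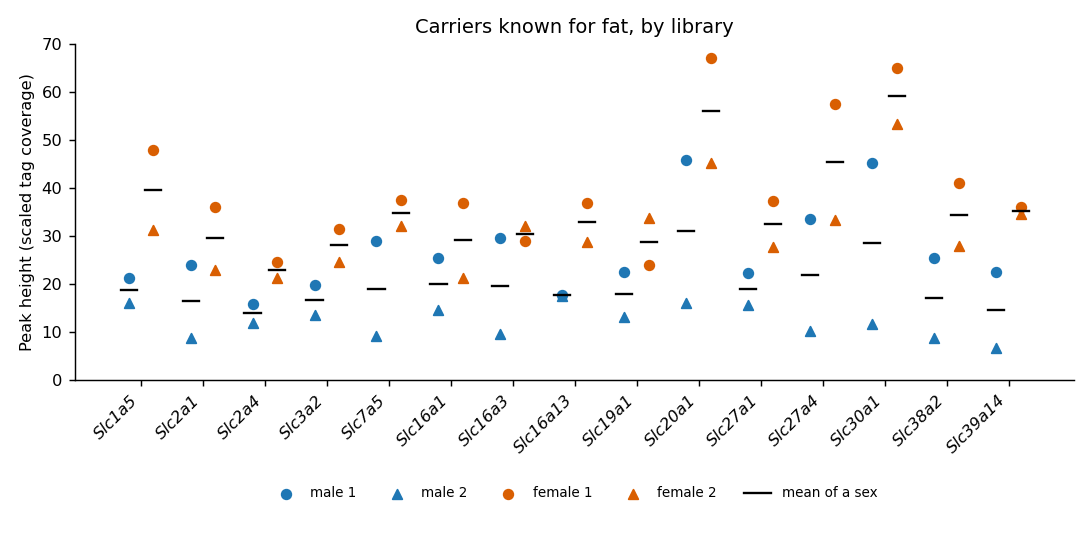
Peak height (vertical axis) of the 15 carriers known for fat, 1 point per library, with male points left of female points for each gene. In each of the 15 genes male 2 lies lowest, as in Slc30a1 (11.7) and Slc27a4 (10.3), though nearly level with male 1 in Slc16a13. Male 2 also had the lowest mean height over all genes (16.8) and was above male 1 in 14.3% of them. GLUT4 (Slc2a4) is among the lower genes with 12 to 24.7.

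Classes follow the family number in the name, not the substrate of each gene. Slc9a3r1 thus counts as an ion exchanger, Slc7a6os as an amino acid carrier, and Slc5a5 and Slc5a6 as sugar carriers. Class medians ran from -0.92 (phosphate, 3 members) to -0.11 (peptides, 2 members). Over 23 metal carriers the median log2 difference was -0.71 (-1.19 to -0.19), over 26 ion exchangers -0.74 (-1.06 to 0.22), over 24 amino acid carriers -0.56 (-1.25 to -0.03), over 8 sugar carriers -0.67 and over 14 carriers of organic ions and bile acids -0.49. The 5 nucleoside carriers had a median of -0.79, and in each of them both males lay below both females, as in 76.4% of all genes. The 5 nucleotide sugar carriers had -0.44, with a relative median of 0.19. The 3 calls fell in nucleosides, phosphate and amino acids, 1 in each, and the other 11 classes had 0. With 1 to 26 members a class and 2 libraries a sex these medians are descriptions. With each library centred on its median, 23 of the 64 members named by rule had a positive difference, among them Slc2a4, Slc27a1, Slc16a1, Slc3a2 and Slc35a1. Centring brings the median of all genes near 0 (-0.01), so many positive differences follow from it by construction. Of the 138 members, 70 (50.7%) had a relative difference below 0.

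**Figure D4:**
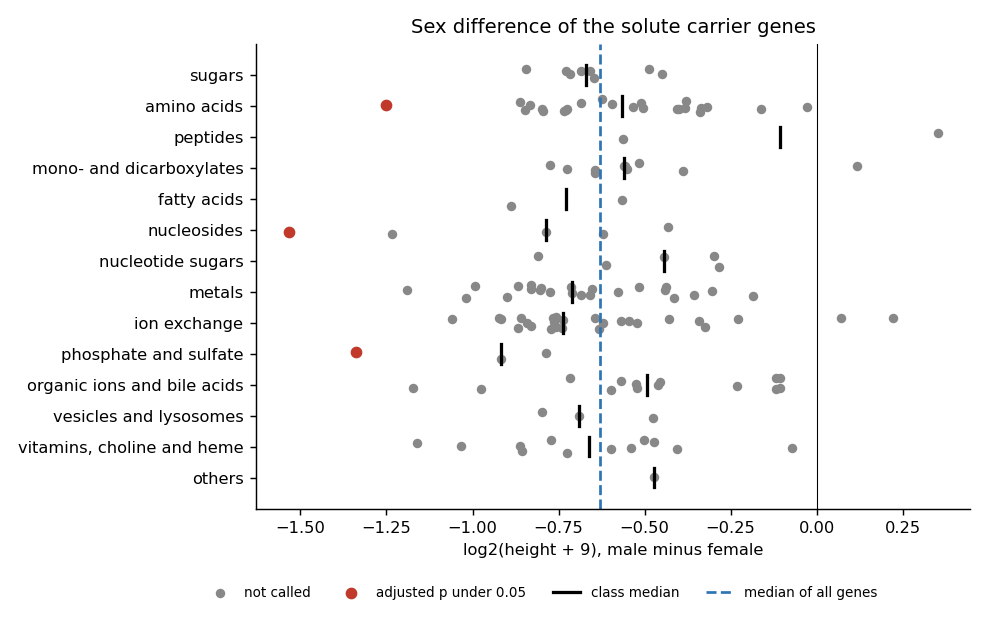
Log2 difference, male minus female, of every member by substrate class (horizontal axis, log2(height + 9) scale), with each class median and the median of all genes (-0.63). Class medians lie around the all-gene median, the points of the classes overlap, and only 4 of 138 members lie above 0.

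Metal carriers had some of the highest promoter peaks of the members. Slc30a1, the zinc exporter ZnT1 of the plasma membrane, had 45.2 in male 1 and 11.7 in male 2, against 65.0 in female 1 and 53.4 in female 2 (log2 difference -1.02, SE 0.41, adjusted p = 0.119). Male 2 alone was low, and it was the library without a peak call there. The Slc30a1 region is shared with 1700034H15Rik. Slc39a14 (ZIP14, an importer of zinc, iron and manganese) had 22.6 and 6.61 in males, against 36 and 34.5 in females (-0.99, adjusted p = 0.110). Slc39a10 had 34.6 and 23.5 in males, against 71.0 and 52.6 in females (-0.90, adjusted p = 0.140), and the copper importer Slc31a1 had 53.7 and 21.3 in males, against 63.0 and 71.5 in females (-0.80, adjusted p = 0.159), the highest male 1 height of all members. The Slc31a1 region is shared with Fkbp15.

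Transcription of Slc30a1 is known to follow zinc through the factor MTF1 and its metal response elements. The core letters TGCACNC or TGCGCNC were searched on both strands. They stood in 38.3% of the 60 member promoters with a region at the start, against 39.1% of 6740 such promoters of all table genes and 25.7% of all 32851 promoters. The promoters of Slc30a1 (chr1:191906531-191906830, plus strand, 2 matches, with the deposited region chr1:191906601-191906781 inside the window) and Slc30a4 (chr2:122702614-122702913, minus strand, 3 matches) are shown because they are the zinc exporters with the widest gap between sexes. Capitals mark the matches, all on the opposite strand.

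Slc30a1: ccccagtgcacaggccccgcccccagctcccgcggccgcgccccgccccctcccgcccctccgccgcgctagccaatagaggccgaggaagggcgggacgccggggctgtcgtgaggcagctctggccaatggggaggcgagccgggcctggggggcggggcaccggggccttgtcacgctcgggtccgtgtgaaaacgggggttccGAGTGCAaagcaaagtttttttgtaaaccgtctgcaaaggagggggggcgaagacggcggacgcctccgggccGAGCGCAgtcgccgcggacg

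Slc30a4: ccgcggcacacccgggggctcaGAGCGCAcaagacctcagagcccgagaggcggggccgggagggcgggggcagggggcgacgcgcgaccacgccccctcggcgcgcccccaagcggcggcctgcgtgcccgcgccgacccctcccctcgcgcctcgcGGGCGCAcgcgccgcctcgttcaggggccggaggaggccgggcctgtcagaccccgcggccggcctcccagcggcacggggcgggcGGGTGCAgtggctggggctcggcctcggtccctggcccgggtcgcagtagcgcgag

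The phosphate carriers were Slc20a1, Slc20a2 and Slc34a3. Slc20a1 had 45.9 in male 1 and 16.2 in male 2, against 67.0 in female 1 and 45.2 in female 2 (-0.79, adjusted p = 0.163), so that male 1 and female 2 were level. Slc20a2 (PiT-2) had 4.95 and 5.14 in males, against 24.0 and 12.3 in females (-0.92, adjusted p = 0.109), at a region 14852 bp inside the gene. That region is shared with Gm17491. The E-box CACGTG, the letters that MYC, MITF and USF proteins bind, stood in 16.7% of the 60 member promoters with a region at the start, against 10.8% of such promoters of all table genes and 7.15% of all promoters. That is 10 members. The promoter of Slc20a1 (chr2:129198523-129198822, plus strand) holds 2, in capitals.

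Slc20a1: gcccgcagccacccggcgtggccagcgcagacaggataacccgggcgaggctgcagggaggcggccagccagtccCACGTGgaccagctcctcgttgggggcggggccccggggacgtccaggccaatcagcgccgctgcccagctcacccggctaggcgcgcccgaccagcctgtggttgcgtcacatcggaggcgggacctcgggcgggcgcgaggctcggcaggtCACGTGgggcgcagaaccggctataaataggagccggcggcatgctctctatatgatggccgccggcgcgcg

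The amino acid response letters TGATGNAAN, to which ATF4 binds, stood in 1 of the 60 member promoters with a region at the start (1.67%, against 1.77% of such promoters of all table genes). That promoter is of Slc1a4 (chr11:20332664-20332963, minus strand), where the match, in capitals on the opposite strand, lies beside the start. The cyclic AMP response letters TGACGTCA stood in 1 as well (1.67%, against 3.68%). Slc1a4 itself had a peak in all 4 libraries and heights of 32.5 in male 1 and 25.7 in male 2, against 57.0 in female 1 and 42.7 in female 2 (-0.62, adjusted p = 0.224).

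Slc1a4: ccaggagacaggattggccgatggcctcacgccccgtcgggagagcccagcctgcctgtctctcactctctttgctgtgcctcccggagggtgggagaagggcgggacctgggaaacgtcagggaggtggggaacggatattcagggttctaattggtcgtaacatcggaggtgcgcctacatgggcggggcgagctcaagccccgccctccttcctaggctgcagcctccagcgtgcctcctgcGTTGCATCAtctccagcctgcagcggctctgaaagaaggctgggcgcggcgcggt

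The ion exchangers and cofactor carriers given here were named for a small p in their class, or in Slc9a8 for a high mean height. A choice by p favours wide differences, so their lying below the all-gene median of -0.63 follows in part from the choice. Slc26a9, an epithelial chloride carrier, had 4.24 and 5.87 in males, against 16 and 17.3 in females (-0.87, adjusted p = 0.113), with close replicates in both sexes. Slc4a5, a sodium bicarbonate carrier, had 19.1 and 10.3 in males, against 33.0 and 37.0 in females (-0.92, adjusted p = 0.123). Slc9a8, the sodium-proton exchanger NHE8 of the Golgi and endosomes, had 45.2 and 17.6 in males, against 58.0 and 53.4 in females (-0.77, adjusted p = 0.171). Slc52a2, a riboflavin carrier, had 29.0 and 9.55 in males, against 51.0 and 40.3 in females (-1.03, adjusted p = 0.110). Slc46a1, the proton-coupled folate carrier, had 13.4 and 5.87 in males, against 33.0 and 17.3 in females (-0.86, adjusted p = 0.124). In these 5 genes both males lay below both females (against 76.4% of all genes), and none passed the test. The region of Slc52a2 is shared with Fbxl6 and Gm8140, and that of Slc46a1 with Sarm1.

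Among carriers of bile acids and organic anions, Slco2b1 had 21.2 in male 1 and 12.5 in male 2, against 41.0 in female 1 and 41.1 in female 2 (-0.97, adjusted p = 0.118), with all but identical females at a region 46316 bp inside the gene. Slc10a1, the bile acid carrier NTCP of the liver, was listed with 26.5 and 19.1 in males, against 37.0 and 40.7 in females (-0.60, adjusted p = 0.228), but its regions lie 21839 and 22511 bp downstream of the start and are linked also to Srsf5 and Gm20337.

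Male 2 was the highest of the 4 libraries for 3 members (2.17%, against 2.68% of all genes): Slc15a3, Slc9a5 and Slc26a11. A positive difference was found for 4 members, none past the test: Slc15a3, Slc9a5, Slc16a12 and Slc26a11. Slc15a3, a lysosomal carrier of histidine and peptides, had 4.95 in male 1 and 11 in male 2, against 2 in female 1 and 6.58 in female 2 (0.35, SE 0.33, adjusted p = 0.365), with a peak call in male 2 alone. Slc9a5, the sodium-proton exchanger NHE5, had 43.8 and 66.8 in males, against 47.0 and 43.6 in females (0.22, adjusted p = 0.642), and without male 2 its difference was -0.04. The Slc9a5 region is shared with Fhod1. Slc26a11, a sulfate and chloride carrier, had 27.2 and 34.5 in males, against 31.5 and 26.3 in females (0.07, adjusted p = 0.879). Its regions went apart: the peak at its start reached 33.2 in male 1 and 14.7 in male 2, against 38.0 in female 1 and 31.2 in female 2, while the region 34523 bp downstream (chr11:119390031-119390495), linked also to Rnf213 and Mir1932, had a peak in male 2 alone, of 54.3.

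In heights, Slc44a1 showed the widest gap between the libraries of either sex, though on the log2 scale other members had wider ones, with 1.56 between the males in Slc30a4 (0.93 in Slc44a1) and 1.09 between the females in Slc4a4 (0.81 in Slc44a1). Its heights were 37.5 in male 1 and 79.3 in male 2, against 80.0 in female 1 and 41.9 in female 2, so that each sex had 1 high and 1 low library. The log2 difference was -0.07 (SE 0.41, adjusted p = 0.881), and it was 0.33 without female 1 and 0.39 without male 1. The height of 79.3 was the 17th highest of all genes in male 2, yet no male 2 peak was called there and the nearest male 2 interval lay 112126 bp away. Among the 6105 genes without a male 2 peak it was the highest. Slc7a1, the arginine and lysine carrier CAT1, had 38.2 and 19.8 in males, against 32 and 25.5 in females (-0.03, adjusted p = 0.952), and a peak call in female 1 alone although male 1 was higher; without male 2 the difference was 0.33.

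**Figure D5:**
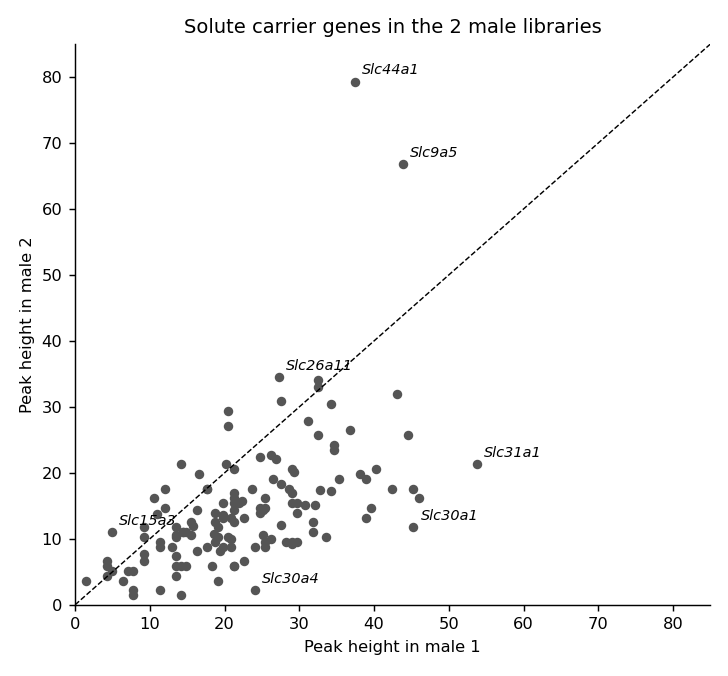
Height of each of the 138 members in male 1 (horizontal axis) and male 2 (vertical axis), with the line of equal heights. Male 2 was above male 1 for 23 members (16.7%, against 14.3% of all genes), and Slc44a1 (79.3 in male 2) and Slc9a5 (66.8) stand far above the rest.

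Proteins that bind, drive or regulate carriers were taken from a list of 40, of which 32 had a row. Passing the test were 0 of the 32 (against 0.592% of all genes), the median log2 difference was -0.65 (relative -0.02), and both males lay below both females in 27 (84.4%, against 76.4% of all genes). For Slc9a3r1, which is in this list and in the name rule, the same height counts in both.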

How the data were processed

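Frozen subcutaneous white fat of WT mice (2 male and 2 female samples) was ground, and its nuclei were tagged with Tn5; the labels' protocols give 10 PCR cycles. The submitters' processing notes list BWA, MACS2 2.1.0 and mm10, while duplicate removal, filters and any Tn5 shift are not described there. The authors deposited a signal per library, the peak height, scaled by a factor of unstated basis and averaged over a gene's linked regions, with merged regions and 1 set of peak intervals for each library, per the file headers. Genome positions are mm10, counted from 1. The deposited table holds 11993 genes, and 4740 of them share all regions with another gene.

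The scale of the test is log2(height + 9). The added 9 is the 5th percentile of non-zero heights, rounded up. This scale understates differences of low genes. Males were compared with females using limma 3.58.1 in R 4.3.3 with trend, on all genes with a height above 0 in at least 2 libraries (all of them), with Benjamini-Hochberg adjustment over the whole table and a threshold of 0.05. The fit drew each gene's spread from genes of like height and found no extra spread of its own per gene. A region was placed at a start when within 1000 bp, and a peak counted when it overlapped a region by 1 bp. Scripts ran in Python 3.11.15 (numpy 2.4.6, pandas 2.3.3, matplotlib 3.10.9, scipy 1.17.1). The fit was also run on simulated data. These held no library-wide difference, so they do not bear on the calls given here. All members matched RefSeq by gene ID, and deposited symbols are printed.

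The members and all lists were chosen with earlier results of these data known. Named were members past the threshold, in each substrate class the 3 with the smallest p and the 2 with the highest mean height, the 5 most positive and 5 most negative, and a list of carriers known for fat; Slc22a21, Slc4a4 and the letters of promoters shown were chosen after their values were seen. Alternatives covered the pseudocount, filters, centring, quantile normalization, a replicate block, the variance trend, a row per region set, the start window, the peak overlap and each library left out. Some items are not reported here.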

Additional observations from a re-analysis of the deposited data

How the results depend on the processing

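The count of 3 members called, with 71 genes in all, became 0 members and 0 genes when only genes with a mean height above the 25th percentile were tested (98 members, of the 3 only Slc28a3), with centred libraries and with quantile normalization. It became 7 and 416 without the trend in limma. With a replicate block it became 81 members and 6925 genes; the 2 pairs of same-numbered libraries deviated with a correlation of 0.02, so the numbers are not taken to pair the samples. Leaving out each library in turn gave 0 to 67 members and 0 to 6419 genes, the highest without male 1 and 0 of each without male 2. The pseudocount of 1 lost Slc1a1 (adjusted p = 0.0594). The median log2 difference of members (-0.64) was -0.34 with a pseudocount of 36, -0.0203 with centred libraries and -0.0259 with quantile normalization, and with each library left out it ran from -0.83 (without male 1) to -0.38 (without male 2). Members with a peak in all 4 libraries fell to 22, against 45, when an interval had to cover at least as much of the region as it left uncovered, in place of 1 bp. The share at a start was 58.0% within 500 bp and 63.8% within 2500 bp. The cause of these shifts was not tested, apart from the library-wide difference that centring removes by construction.

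With centred libraries the difference of 19 named members became positive, on the log2 scale: Slc10a1 0.0198, Slc15a4 0.055, Slc16a1 0.23, Slc16a3 0.0576, Slc16a8 0.0601, Slc17a7 0.142, Slc19a1 0.116, Slc22a5 0.0936, Slc27a1 0.0508, Slc2a4 0.131, Slc35a1 0.175, Slc35a2 0.0065, Slc35a5 0.319, Slc37a4 0.144, Slc38a10 0.107, Slc3a2 0.0839, Slc44a1 0.546, Slc5a5 0.169 and Slc7a1 0.59. With quantile normalization 19 did: Slc10a1 0.0289, Slc15a4 0.0354, Slc16a1 0.229, Slc16a3 0.042, Slc16a8 0.0721, Slc17a7 0.129, Slc19a1 0.1001, Slc1a4 0.0283, Slc22a5 0.0986, Slc27a1 0.0522, Slc2a4 0.115, Slc35a1 0.164, Slc35a5 0.302, Slc37a4 0.174, Slc38a10 0.168, Slc3a2 0.0646, Slc44a1 0.386, Slc5a5 0.174 and Slc7a1 0.609. Leaving out a library in turn gave ranges over the 4 fits of Slc44a1 from -0.535 to 0.391, Slc7a1 from -0.383 to 0.327, Slc16a12 from -0.101 to 0.336, Slc26a11 from -0.0623 to 0.203 and Slc9a5 from -0.0386 to 0.483. The unknown depth and 2 libraries a sex limit all comparisons.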

Other observations

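Some carriers named for tissues other than fat had a peak in all 4 libraries, each in a region linked also to other genes. Slc17a7, the vesicular glutamate carrier VGLUT1 of nerve cells, had 21.2 and 14.3 in males, against 32 and 24.3 in females, with Pih1d1 and Aldh16a1 among the genes that share its regions. Slc18a1, the vesicular monoamine carrier VMAT1 of neuroendocrine cells, had 20.5 in male 1 and 29.4 in male 2, against 54.0 in female 1 and 37.8 in female 2, and shares its region with Atp6v1b2, a subunit of the vesicular proton pump.

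Among the 5 nucleotide sugar carriers, Slc35a5 had 20.5 in male 1 and 27.2 in male 2, against 39.0 in female 1 and 24.7 in female 2, the only one of the 5 in which a male stood above a female. Slc35a2, the UDP-galactose carrier, had 13 and 8.81 in males, against 21.3 and 21.1 in females, and Slc35a3, the UDP-N-acetylglucosamine carrier, had 25.1 and 10.6 in males, against 37.0 and 35.8. in females None passed the test (adjusted p = 0.508 for Slc35a5, 0.189 for Slc35a2 and 0.146 for Slc35a3).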
